A study of Mus musculus with 24 samples.

Results

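The Fc gamma receptor genes described here are Fcgr1, Fcgr3 and Fcgr4, which encode the activating receptors for IgG, Fcer1g, which encodes their signalling chain, Fcgr2b, which encodes the inhibitory receptor, Fcgrt, which encodes the neonatal Fc receptor, and Fcrls, which encodes an Fc receptor-like scavenger receptor. They were chosen by name and function, as the probes of an Illumina mouse array that carry these symbols in the platform annotation, and they make up 7 of the 19057 genes and 14 of the 45281 probes of the array. Each gene was read from its detected probe with the highest mean. The arrays hold RNA of mononuclear phagocytes sorted from the tibialis anterior muscle of adult mice, either untreated or 4 days after an intramuscular injection of notexin, a snake venom toxin that destroys muscle fibres. All mice were on the C57Bl/6J background, and there were 4 strains, namely WT, Cx3cr1-/- (lacking the fractalkine receptor), Ccl2-/- (lacking the chemokine that draws monocytes) and Cx3cr1-/- Ccl2-/-. All sorted cells were CD11b+ Ly6G- NK1.1-. They were gated by the macrophage surface antigen encoded by Emr1 and by Ly6C, a marker of inflammatory monocytes. Subset 1 was Emr1 low Ly6C high, subset 2 was Emr1 low Ly6C low, and subsets 3 and 4 were Emr1 high Ly6C low and were parted by the lectin Mgl1, which was low in subset 3 and high in subset 4. Subsets 1 to 4 were measured on day 4 and subsets 3 and 4 in untreated muscle, which gives 6 groups of 4 arrays, 1 array for each strain. Each strain and condition was 1 pool of 3 mice from which all its subsets were sorted, so the 4 strains are the replicates of a group, and a strain has no replicate of its own. Between subsets and conditions, p-values measure the spread between arrays, and the main tests count subsets of 1 pool as separate arrays. Females and males were used, and which pool held which is not stated in the labels or methods.

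Fc gamma receptors bind the constant part of IgG and let phagocytes take up or respond to whatever the antibody coats. The activating receptors have short tails and signal through the Fc receptor gamma chain, which recruits the kinase Syk, while the inhibitory receptor carries its own inhibitory motif and recruits the phosphatase SHIP. Macrophages and monocytes carry activating and inhibitory receptors side by side, and the balance sets the threshold for a response. The neonatal receptor works inside the cell, where it rescues IgG and albumin from lysosomal breakdown. Before staining, the cells were incubated with an antibody to Fc gamma receptors II and III to block unspecific binding, and an antibody to CD64, the product of Fcgr1, was among the stains but was not named as a gate.

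On each array 7054 to 18289 probes were above background at a detection p of 0.05 (median 15786.5). Fewer than 11000 were so on 4 arrays, namely subset 2 of Cx3cr1-/- and of Cx3cr1-/- Ccl2-/-, subset 4 of Cx3cr1-/- on day 4 and subset 3 of Ccl2-/- from untreated muscle. The 9 macrophage markers on the array were all detected on every array outside subset 2, where 6 to 9 were. The Cx3cr1 probe parted the genotypes in subsets 1 and 3 on day 4 but not in subsets 2 and 4, and most untreated arrays were at background for it. In subset 2 it read 6.21 in WT and 7.21 in the array labelled Cx3cr1-/-, and in subset 4 it read 6.58 and 6.77. The subset 2 array labelled Cx3cr1-/- Ccl2-/- read 6.46 and was above background too, so the strain of these arrays rests on the label alone. The Ccl2 probe was above background in subsets 1, 3 and 4 of the Ccl2-/- strains, and no source states whether it lies in the deleted part, so it does not check that allele. In sorted populations such as these, fewer cells of a type and less RNA per cell cannot be told apart.

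The windows before the transcription starts are shown for Fcgr1 and Fcgr4, the pair that was higher after injury, and for Fcrls, which was lower. Fcgr1 lies at chr3:96282909-96293969, Fcgr4 at chr1:171018926-171029761 and Fcrls at chr3:87250736-87263765 in GRCm38.p6, from RefSeq. Each line gives 250 bases that end just before a RefSeq start, 5′ to 3′ on the strand of the gene, from chr3:96293970-96294219 (minus strand) for Fcgr1, chr1:171018676-171018925 (plus strand) for Fcgr4 and chr3:87263525-87263774 (minus strand) for Fcrls. The start used for Fcrls lies inside the annotated span of the gene, so most of that window does too. Capitals mark matches to 2 motifs, searched on both strands.
Fcgr1: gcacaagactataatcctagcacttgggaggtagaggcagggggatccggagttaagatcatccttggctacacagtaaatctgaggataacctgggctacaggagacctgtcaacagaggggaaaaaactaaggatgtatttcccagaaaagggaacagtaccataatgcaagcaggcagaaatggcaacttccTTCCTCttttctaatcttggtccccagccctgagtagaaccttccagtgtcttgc
Fcgr4: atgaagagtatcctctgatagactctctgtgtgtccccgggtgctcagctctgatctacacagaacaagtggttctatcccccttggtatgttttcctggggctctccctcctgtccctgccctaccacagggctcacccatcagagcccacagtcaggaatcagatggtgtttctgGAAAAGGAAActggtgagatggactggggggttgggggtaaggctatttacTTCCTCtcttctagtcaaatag
Fcrls: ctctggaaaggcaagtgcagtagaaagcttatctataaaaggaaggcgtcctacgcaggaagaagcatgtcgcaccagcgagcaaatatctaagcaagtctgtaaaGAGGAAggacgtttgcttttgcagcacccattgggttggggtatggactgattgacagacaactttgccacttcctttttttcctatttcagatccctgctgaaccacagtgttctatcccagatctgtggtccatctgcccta
The motifs were GAGGAA, the core bound by PU.1, the lineage factor of macrophages, and the core of an interferon-stimulated element, which is a pair of GAAA runs with 2 bases between them. GAGGAA or its complement was found before the starts of Fcgr1, Fcgr3, Fcgr4 and Fcrls and not in the windows of Fcer1g, Fcgr2b and Fcgrt, and 23.3% of all 32851 windows of this length hold it. In Fcgr1 the match TTCCTC begins 55 bases before the start, in Fcgr4 22 bases before it, and in Fcrls GAGGAA begins 144 bases before it. The interferon-stimulated element was found in Fcgr4 alone among the 7 genes, as GAAAAGGAAA, and 2.98% of windows hold one. None of the marked matches overlap.

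All 7 genes were detected, Fcgr3, Fcer1g, Fcgr2b, Fcgrt and Fcrls on all 24 arrays, Fcgr4 on 23 and Fcgr1 on 20. The plot of log2 intensities by subset and condition shows 3 kinds of pattern. Fcgr1 and Fcgr4 were higher after injury and low in subset 2. Fcgrt was highest in subset 4 in both conditions. Fcer1g had group means between 10.61 and 11.15. Intensities are on a log2 scale throughout, so a difference of 1 is a 2-fold change, and strains are listed in the order WT, Cx3cr1-/-, Ccl2-/- and Cx3cr1-/- Ccl2-/-.

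**Figure D1:**
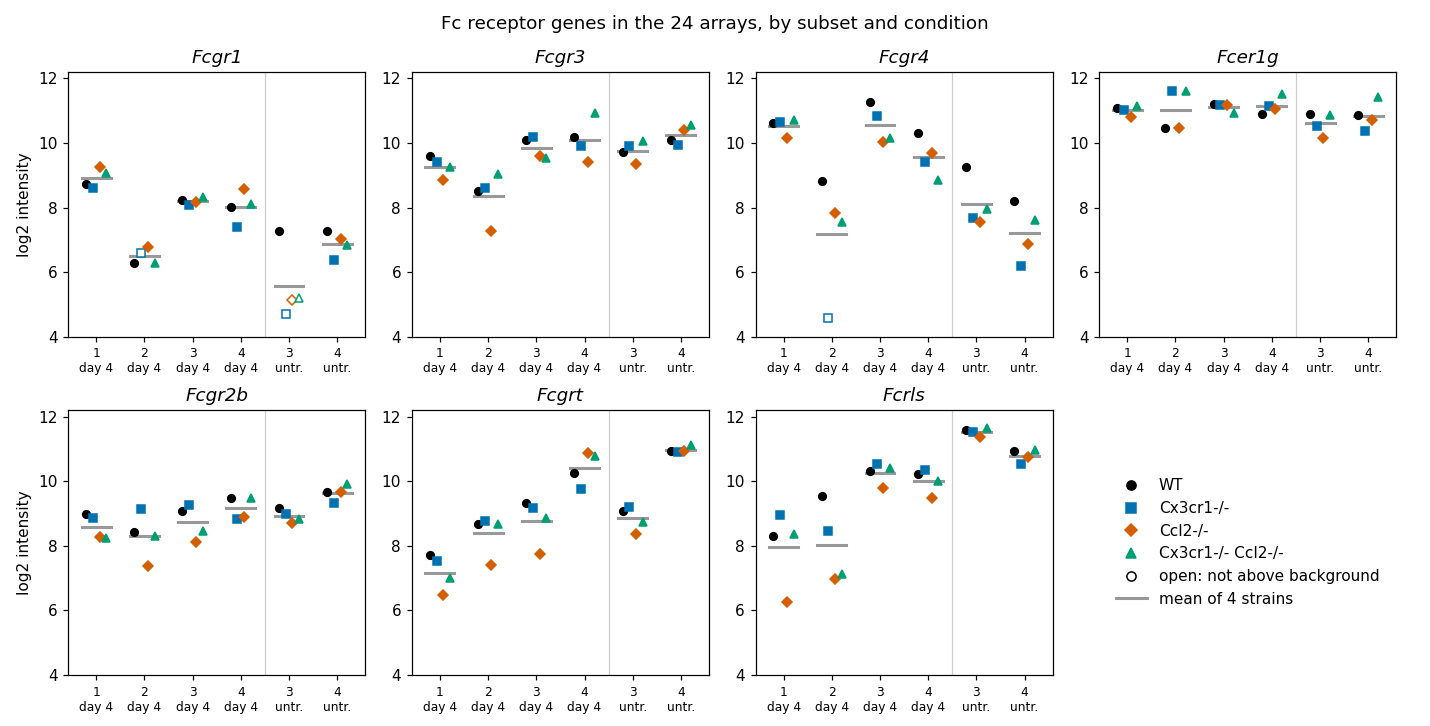
Log2 intensity (vertical axis) of the 7 genes in each subset and condition (horizontal axis, untr. for untreated), 1 point per array, coloured by strain, with the mean of the 4 strains as a grey line and open points for arrays not above background. Fcgr1 and Fcgr4 sit lowest in subset 2 among the day-4 subsets, and Fcgrt sits highest in subset 4 in both conditions.

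On day 4, the subsets differed in 5 of the 7 genes. Subset 2 had less Fcgr1, Fcgr3 and Fcgr4 than the other subsets, subset 1 had the most Fcgr1 and the least Fcgrt, and subset 4 had the most Fcgrt. In the test over the 4 subsets at once, the adjusted p was 1.45e-04 for Fcgr1, 0.0227 for Fcgr3, 0.00599 for Fcgr4, 6.34e-04 for Fcgrt and 0.0148 for Fcrls, and 10.4% of the 15320 probes tested passed. Fcer1g (adjusted p = 0.964) and Fcgr2b (0.303) did not pass. Against the mean of the other 3 subsets, 3 genes were called lower in subset 2 (14.7% of all probes were called in either direction, 10.2% lower), 1 higher and 1 lower in subset 1 (1.35% of probes, 0.783% higher and 0.568% lower), 1 higher in subset 4 (2.28%, 1.26% higher) and none in subset 3 (1.02%). Fcrls in subset 2 narrowly missed the threshold (−1.39 ± 0.46, adjusted p = 0.0502). It stayed on that side under 6 of 16 alternatives and was called lower under the others. Without the Cx3cr1-/- Ccl2-/- pool, 1 of the 7 genes passed the test over the 4 subsets in place of 5, while the probes that passed fell from 1590 to 196.

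Fcgr1 encodes CD64, the high-affinity receptor for IgG. It read 8.74, 8.62, 9.25 and 9.08 in subset 1. It read 6.28, 6.59, 6.79 and 6.29 in subset 2, where the Cx3cr1-/- array was not above background. It read 8.23, 8.09, 8.17 and 8.32 in subset 3 and 8.02, 7.39, 8.58 and 8.13 in subset 4. Every array of subset 1 was above every array of the other subsets, and every array of subset 2 was below them all. Subset 2 was lower than the mean of the other 3 by 1.90 ± 0.22 (log2, SE, n = 4 strains), a 3.72-fold difference (adjusted p = 4.46e-05). This call held under all 14 alternative settings. Subset 1 was higher than the others by 1.35 ± 0.22, or 2.55-fold (adjusted p = 0.00441). The call for subset 1 was lost without the Ccl2-/- pool (1.33, adjusted p = 0.0708), without the Cx3cr1-/- Ccl2-/- pool (1.30, 0.144) and with scaling to the median (1.66, 0.0696). Between subsets 3 and 4 the level differed by −0.17 ± 0.27 (95% interval −0.75 to 0.40).

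Fcgr3 encodes CD16, a low-affinity activating receptor. It read 9.58, 9.40, 8.85 and 9.24 in subset 1 and 8.51, 8.61, 7.28 and 9.05 in subset 2. In subset 3 it read 10.10, 10.18, 9.60 and 9.53, and in subset 4 it read 10.18, 9.89, 9.42 and 10.91. Subset 2 was the lowest within each strain, although its highest array lay above the lowest of subset 1. Subset 2 was 2.60-fold below the other subsets (−1.38 ± 0.31, adjusted p = 0.00928), again under all 14 alternatives, whereas the test over the 4 subsets lost its call when any of the strains was left out (adjusted p = 0.0688 to 0.119).

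Fcgr4 encodes the activating receptor of mouse that binds IgG2a and IgG2b. It read 10.63, 10.64, 10.17 and 10.72 in subset 1 and 11.25, 10.83, 10.03 and 10.16 in subset 3. In subset 4 it read 10.30, 9.40, 9.69 and 8.86. In subset 2 it read 8.82, 4.57, 7.84 and 7.54, with the Cx3cr1-/- array not above background. No array of subset 2 reached the lowest array of any other day-4 subset. The gene was 8.17-fold lower in subset 2 than in the others (−3.03 ± 0.52, adjusted p = 0.00141). Without the 4 weak arrays, which removes 2 of the 4 arrays of subset 2, the difference was −1.91 (adjusted p = 0.00413). Subsets 1 and 3 differed by 0.03 ± 0.63 (95% interval −1.30 to 1.37), an interval that leaves room for a difference in either direction.

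Pairs of subsets were compared in the same fit. Subset 2 against subset 1 gave 2 calls, both lower (6.42% of probes were called, 4.69% lower), for Fcgr1 (−2.43 ± 0.27, adjusted p = 8.58e-05) and Fcgr4 (−3.34 ± 0.63, 0.00736), and the second was lost without the Cx3cr1-/- Ccl2-/- pool (adjusted p = 0.123). Subset 3 against subset 2 gave 4 calls, all higher (13.3% of probes, 9.03% higher), and 3 of them were the activating receptors, with 1.72 for Fcgr1, 1.49 for Fcgr3 and 3.38 for Fcgr4. Subset 4 against subset 2 gave 5 calls, all higher (5.88% of probes, 3.66% higher), with 1.54 for Fcgr1, 1.74 for Fcgr3 and 2.37 for Fcgr4. All calls of these last 2 pairs were lost without the Cx3cr1-/- Ccl2-/- pool (adjusted p for Fcgr1 0.0518 and 0.0681), and the probes called fell from 2041 to 175 and from 901 to 256. Fcgr3 also lost its call without the WT pool in both pairs (adjusted p = 0.0701 and 0.0663) and without the Cx3cr1-/- pool in the first (0.0766). For subset 4 against subset 2, Fcgr1 lost it with scaling to the median (0.146), and Fcgr4 lost it under 6 of 14 alternatives, also without the Cx3cr1-/- pool (1.55, 0.0647), the Ccl2-/- pool (2.54, 0.114) or the weak arrays (1.28, 0.0826), with scaling to the median (0.195) and with no filter (0.125). The other pairs gave no call for an activating receptor.

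Markers of dendritic cells moved with subset 2. On its arrays 10 to 12 of the 12 dendritic cell markers were detected, with a log2 summed level of 13.06 to 14.19, against 4 to 9 markers and 10.77 to 12.16 in the other day-4 subsets, where Flt3 and Ccr7 were undetected on every array of subsets 1 and 3. The summed level of the macrophage markers was 10.77 to 12.17 in subset 2 and 12.75 to 14.13 in the other day-4 subsets. Their part in the low activating receptors of subset 2 was not tested.

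Fcer1g, the gamma chain with which the activating receptors signal, was not called in any day-4 comparison of subsets in the main fits. With scaling to the median it was called for subset 3 against subset 2, as were all the other genes described here. It lay between 10.81 and 11.15 in subset 1, between 10.94 and 11.21 in subset 3 and between 10.91 and 11.52 in subset 4. In subset 2 it read 10.48, 11.59, 10.46 and 11.59, with both weak arrays of that subset at the upper end. The difference of subset 2 from the others was −0.07 ± 0.24 (95% interval −0.57 to 0.44), and no test set it against the activating receptors. Within strains this difference ran from −0.59 to 0.48, so the mean near 0 joins values of both signs. The DNAX activation protein gene Tyrobp, which encodes the other such adaptor, gave −0.13 ± 0.17 in the same comparison.

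Fcgr2b, the inhibitory receptor, was not called in any comparison of the main fits. Some alternatives called it, among them scaling to the median for subset 2 against the others and for subset 3 against subset 2. On day 4 its arrays spanned 8.24 to 8.99 in subset 1, 7.38 to 9.15 in subset 2, 8.13 to 9.27 in subset 3 and 8.82 to 9.48 in subset 4, and the groups overlapped. Subset 4 differed from the others by 0.62 ± 0.30 (adjusted p = 0.327). The gene has 5 probes. The probe ILMN_3102376 gave 0.78 for subset 4, but the dimmer probe ILMN_2577664 gave −0.16, and for subset 2 it gave 0.52 where the chosen probe gave −0.52. The remaining probes were above background on 6 of 24 arrays each.

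Fcgrt separated subset 4 from subset 1. It read 7.70, 7.52, 6.47 and 6.99 in subset 1 and 8.67, 8.77, 7.41 and 8.68 in subset 2. It read 9.33, 9.17, 7.76 and 8.86 in subset 3 and 10.25, 9.77, 10.87 and 10.77 in subset 4. All arrays of subset 4 were above all others of day 4, and on this probe the order within each strain was subset 1, 2, 3 and 4 from low to high. On the second probe, ILMN_2917497, subset 2 (9.42) was above subset 3 (8.79) in Cx3cr1-/-. Subset 4 was 4.94-fold above the other subsets (2.30 ± 0.34, adjusted p = 7.52e-04), a call lost without the Cx3cr1-/- Ccl2-/- pool (2.21, 0.0545). Subset 1 was 4.07-fold below the others (−2.02 ± 0.34, adjusted p = 0.00481), a call lost without the same pool (−1.88, 0.174) and with scaling to the median (−1.75, 0.0852). Subset 4 against subset 1 gave the only call of that pair among the 7 genes (2.57% of probes were called, 1.02% higher), with 3.25 ± 0.41 or 9.49-fold (adjusted p = 2.32e-04), and it held under all 15 alternatives. Of the neighbours in the order, subsets 2 and 3 differed by 0.40 ± 0.41. Subsets 3 and 4 differed by 1.63 ± 0.41 (adjusted p = 0.0906, and 0.0480 with the pool as a block), and subset 2 exceeded subset 1 by 1.21 ± 0.41 (0.0782, and 0.0444 with the block). The second probe of the gene gave 2.24 for subset 4 and −1.95 for subset 1, each called.

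Endothelial cells are known to carry the neonatal receptor too. Of 7 endothelial markers 1 to 4 were detected on the arrays of subset 4 on day 4, with Tek and Cldn5 undetected on all of them, and their log2 summed level was 7.62 to 8.14 against 7.64 to 8.37 in the other day-4 subsets. Tek was undetected in every other group too, and the sums include markers not above background. The summed level of the 6 fibroblast markers was 9.40 to 11.24 in subset 4, 9.50 to 11.25 in subset 2 and 8.69 to 10.21 in subsets 1 and 3. The part of endothelial or fibroblast RNA in the Fcgrt level was not tested.

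Fcrls, the scavenger receptor related to Fc receptors, had its highest day-4 levels in the Emr1 high subsets. It read 10.31, 10.52, 9.78 and 10.42 in subset 3 and 10.21, 10.34, 9.47 and 10.01 in subset 4. It read 8.30, 8.96, 6.26 and 8.37 in subset 1 and 9.54, 8.46, 6.96 and 7.12 in subset 2. The lowest array of subset 3 lay above every array of subsets 1 and 2, while subset 4 overlapped subset 2 through a narrow margin. Subset 3 was 4.71-fold above subset 2 (2.24 ± 0.56, adjusted p = 0.0191), and subset 4 was 3.97-fold above it (1.99 ± 0.56, 0.0449). Both calls were lost without the Cx3cr1-/- Ccl2-/- pool (1.88, adjusted p = 0.218, and 1.69, 0.322), without the Cx3cr1-/- pool (2.29, 0.058, and 2.03, 0.102) and without the weak arrays (2.01, 0.0686, and 1.65, 0.166), and that for subset 4 also without the Ccl2-/- pool (1.82, 0.0652). They were lost as well with no filter (adjusted p = 0.0521 and 0.143) and on the probe ILMN_1219764 (1.22, 0.0802, and 1.38, 0.0966), and that for subset 4 with scaling to the median (2.36, not called). Against subset 1 the differences were of like size, 2.28 ± 0.56 for subset 3 (adjusted p = 0.133) and 2.04 ± 0.56 for subset 4 (0.066). With a block for the shared pool these passed (adjusted p = 0.0244 and 0.0130), as did subset 1 (−1.45, 0.0371), subset 2 (−1.39, 0.0132) and subset 3 (1.59, 0.0251) against the other 3. Without the block, subset 2 against the other 3 passed on the probe ILMN_2831436 (−2.16, adjusted p = 0.0148) but not on ILMN_1219764 (−0.69, 0.196). Subset 3 against subset 1 (0.268% of probes were called) and subset 4 against subset 3 (0.268%) gave no call for any of the 7 genes without the block.

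**Figure D2:**
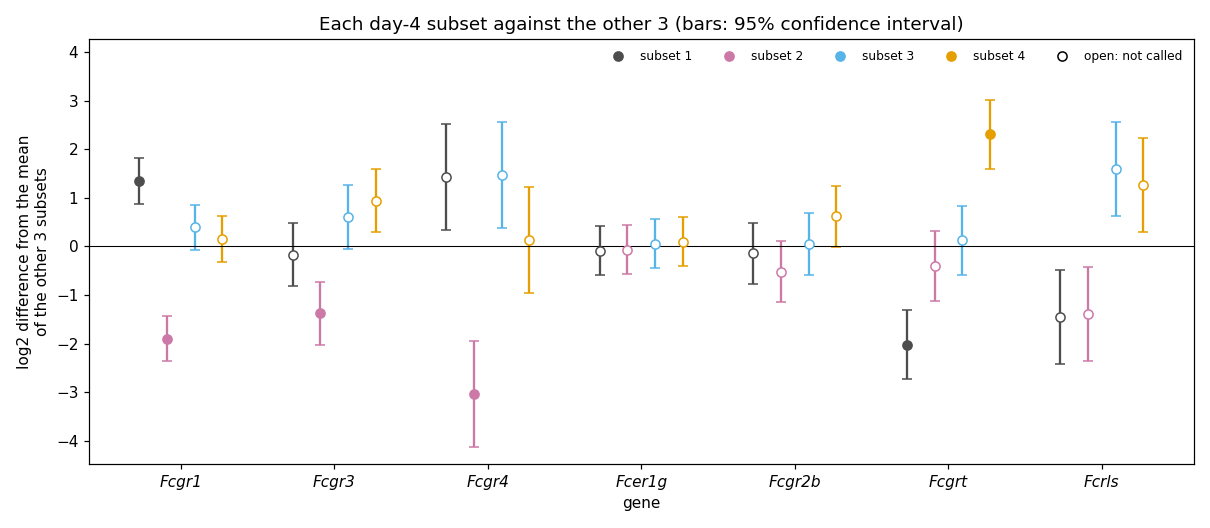
Log2 difference of each day-4 subset from the mean of the other 3 (vertical axis) for the 7 genes (horizontal axis), with 95% confidence intervals over the 4 strains and filled points where the adjusted p is under 0.05. The filled points are Fcgr1 in subsets 1 and 2, Fcgr3 and Fcgr4 in subset 2, and Fcgrt in subsets 1 and 4, and the widest interval is that of Fcgr4.

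The next question was how the same sorted macrophages differed between injured and untreated muscle. Over subsets 3 and 4 together, Fcgr1 and Fcgr4 were higher on day 4 and Fcrls was lower, while Fcgr3, Fcer1g, Fcgr2b and Fcgrt were not called. The 3 calls stood against 11.8% of the 15624 probes tested (5.24% higher, 6.61% lower). All 3 held under every alternative tried, including the fit with 1 value per pool of mice, and for Fcgr1 the size without background correction was 0.98.

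**Figure D3:**
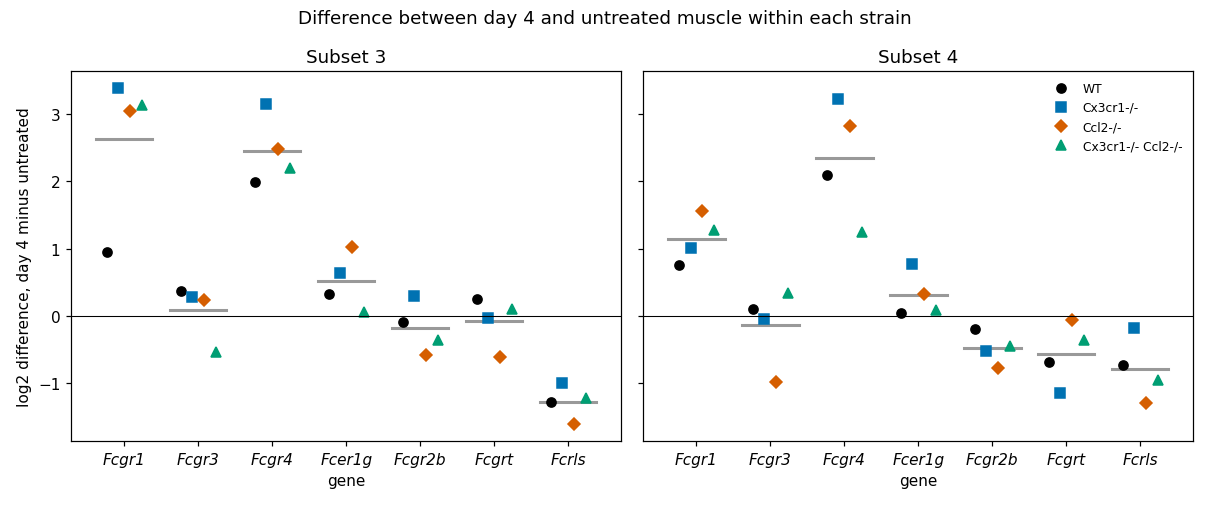
Log2 difference between day 4 and untreated muscle (vertical axis) for the 7 genes (horizontal axis) in subset 3 (left) and subset 4 (right), 1 point per strain, with the fitted mean as a grey line. Fcgr1 and Fcgr4 were above 0 and Fcrls below 0 in all 4 strains of both subsets.

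In untreated muscle, Fcgr1 read 7.29, 4.70, 5.13 and 5.19 in subset 3, where the WT array was the only one of 4 above background. In subset 4 it read 7.26, 6.38, 7.03 and 6.85. Every day-4 array of subsets 3 and 4 was above every untreated array of both. The mean rise was 1.89 ± 0.26, or 3.70-fold (adjusted p = 2.70e-04). It was 2.63 ± 0.37 in subset 3 (adjusted p = 3.50e-04), where the strains gave 0.95 in WT and 3.39, 3.04 and 3.13 in the others. In subset 4 it was 1.15 ± 0.37 (adjusted p = 0.0886) and ran from 0.76 to 1.55. The difference of the 2 rises, −1.48 ± 0.52, missed the threshold (adjusted p = 0.083) and passed it without the WT pool (−1.91, 0.0354) and with scaling to the median (−2.51, 0.00753). Without the WT pool the rise in subset 4 passed too (1.28, 0.0456). Since 3 of the untreated arrays of subset 3 were at background, the size of the rise there depends on how background was treated, and without background correction it was 1.27.

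Fcgr4 read 9.26, 7.68, 7.56 and 7.97 in untreated subset 3 and 8.21, 6.18, 6.88 and 7.61 in untreated subset 4. WT was the highest strain in both, and in 5 of the 6 groups over both conditions. On day 4 each strain was higher than its own untreated array in each subset. The rise was 2.40 ± 0.22 over both subsets, 5.27-fold (adjusted p = 9.28e-06), with 2.45 ± 0.32 in subset 3 (1.94e-04) and 2.34 ± 0.32 in subset 4 (0.00141). The difference between the subsets was −0.11 ± 0.45 with a 95% interval of −1.07 to 0.85.

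The other 4 genes were not called after injury. Fcgr3 spanned 9.35 to 10.07 in untreated subset 3 and 9.93 to 10.56 in untreated subset 4, and the change on day 4 was −0.02 ± 0.20 (95% interval −0.45 to 0.40). Fcer1g spanned 10.15 to 10.88 and 10.36 to 11.43, and it was higher on day 4 in all 4 strains by 0.41 ± 0.17 on average, which did not pass (adjusted p = 0.144). Fcgr2b, with untreated arrays at 8.71 to 9.16 and 9.33 to 9.92, gave −0.33 ± 0.18 (adjusted p = 0.292). Fcgrt, at 8.37 to 9.20 and 10.91 to 11.12, gave −0.31 ± 0.24 (0.456). The interval for Fcgr3 lies below the changes measured for Fcgr1 and Fcgr4, and no test set the genes against each other.

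Fcrls was highest in untreated muscle, at 11.59, 11.52, 11.38 and 11.63 in subset 3 and 10.94, 10.52, 10.76 and 10.97 in subset 4. No day-4 array reached the untreated arrays of its own subset. It fell by 1.03 ± 0.15 over both subsets, a 2.04-fold drop (adjusted p = 5.23e-04), and by 1.27 ± 0.22 in subset 3 (0.00148). In subset 3 scaling to the median gave −0.69 (adjusted p = 0.0608). In subset 4 the change was −0.78 ± 0.22 (0.057). It stayed short of the threshold under 8 of 16 alternatives and passed under the others. Of the other probes, ILMN_2831436 passed in subset 4 (−1.08, 0.0218) and ILMN_1219764 did not (−0.93, 0.102). Its other probes ran the same way, −1.62 over both subsets for the one that moved most.

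For subset 3 alone the 3 calls stood against 15.6% of probes (9.18% higher, 6.37% lower) and for subset 4 the single call, Fcgr4, against 3.97% (1.13% higher). None of the 7 genes was called for a difference of the injury effect between the subsets (7.66% of probes). The marker lists moved with injury as well. In subset 3 the macrophage markers summed to 13.09 to 13.66 in untreated muscle and 13.83 to 14.11 on day 4, and the dendritic cell markers to 12.36 to 12.73 and 10.77 to 12.05. In subset 4 the macrophage markers summed to 14.11 to 14.25 and 13.69 to 14.13 and the dendritic cell markers to 11.89 to 12.70 and 11.58 to 12.16. The 6 monocyte markers there summed to 7.88 to 9.09 in untreated muscle and 9.22 to 9.91 on day 4, and the muscle fibre markers to 9.64 to 10.87 and 8.77 to 9.44. In subset 3 the monocyte markers summed to 8.94 to 11.23 and 9.58 to 9.96. The part of these shifts in the changes of Fcgr1, Fcgr4 and Fcrls was not tested.

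Without injury, subset 4 had more Fcgrt than subset 3 in every strain. The groups did not overlap, and the difference was 2.12 ± 0.33, or 4.35-fold (adjusted p = 0.00123), under all 15 alternatives. Fcgr1 was also called higher in subset 4 (1.30 ± 0.37, adjusted p = 0.0414), so that 2 of the 7 genes were called against 8.17% of probes (5.44% higher). That second call was set against arrays at background, since 3 of the 4 arrays of untreated subset 3 were not above it for Fcgr1, so the size is no exact fold. WT, the only strain above background in both subsets, gave −0.03. The call was lost under 9 of 14 alternatives, among them the fit without the block (adjusted p = 0.0647), without the weak arrays (0.0736), and without the Cx3cr1-/- (0.125), Ccl2-/- (0.213) or Cx3cr1-/- Ccl2-/- pool (0.231). Fcrls was lower in subset 4 in all 4 strains by 0.74 ± 0.22 on average without passing (adjusted p = 0.0507). It stayed short of the threshold under 10 of 16 alternatives and passed under the others. The probe ILMN_1219764 passed (−1.24, 0.0240) and ILMN_2831436 did not (−0.58, 0.146). In untreated subset 4 the 6 fibroblast markers summed to 10.82 to 12.07 and the 7 muscle fibre markers to 9.64 to 10.87, against 9.18 to 9.62 and 8.77 to 10.46 in untreated subset 3, and their part in the Fcgrt difference was not tested.

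The other genes of the pathway were counted from lists. Of 15 tested genes that carry the signal of the activating receptors, such as the kinases and adaptors downstream of Syk, 1 was higher and 1 lower in subset 2, where 14.7% of all probes were called (Rac2, 0.75 ± 0.24, and Lcp2, which encodes the adaptor SLP-76, −1.89 ± 0.56). None was called in subsets 1 and 3, where 1.35% and 1.02% of all probes were. In subset 4, where 2.28% of all probes were called, 1 was lower, the Src family kinase gene Fgr (−1.97 ± 0.49). The median of the list in subset 2 was −0.25 against −0.17 over all probes. After injury 2 of 16 were higher and 1 lower, where 5.24% of all probes were higher and 6.61% lower, at a median of −0.03 against −0.00058 over all probes. The adaptor gene Lat2 gave 0.60 ± 0.15, the exchange factor gene Vav1 0.54 ± 0.15 and Dock2 −0.75 ± 0.22. Syk itself was not called in either comparison (−0.42 ± 0.51 and 0.02 ± 0.25).

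Of the 11 tested genes of the inhibitory arm, 3 were lower in subset 2, where 10.2% of all probes were, at a median of −0.75 against −0.17 over all probes, namely Inppl1, which encodes the phosphatase SHIP2 (−1.72 ± 0.33), Dok2 (−1.65 ± 0.44) and Sirpa, which encodes the receptor for CD47 (−1.05 ± 0.25). After injury 2 were higher, against 5.24% of all probes, Ptpn6 (0.68 ± 0.15), which encodes SHP-1, and Sirpa (0.66 ± 0.13), and the adaptor gene Dok2 was lower (−1.58 ± 0.18, adjusted p = 4.92e-05), against 6.61% of all probes. The list's median there was 0.35 against −0.00058 over all probes. Inpp5d, which encodes the SHIP phosphatase that the inhibitory receptor recruits, was not called in either comparison (−0.42 ± 0.22 and 0.56 ± 0.22).

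The gamma chain serves other receptors too. The adaptor that each one uses was not measured here, and 8 genes listed as such receptors were tested. After injury 3 were higher, where 5.24% of all probes were, namely the C-type lectin genes Clec4n (2.21 ± 0.18, adjusted p = 2.25e-06), Clec4d (2.14 ± 0.39) and Clec7a (0.75 ± 0.20), of which the last is known mainly for signalling by its own motif. The list had a median of 0.09 against −0.00058 over all probes. Clec4e was higher in subset 1 (2.83 ± 0.52, 0.783% of probes higher) and lower in subset 4 (−2.06 ± 0.52, 2.28% of probes called). In subset 2 Clec4d (−1.62 ± 0.41) and Cd300lb (−1.06 ± 0.33) were lower, against 10.2% of probes. Subsets 1 and 3 of Ccl2-/- had more of 2 genes of the list than the other strains had there, where 0.714% of probes were called, namely Clec4e (1.38 ± 0.21, adjusted p = 0.0275) and Clec4d (1.13 ± 0.18, 0.0278). Of the other Fc receptor genes, 4 of the 10 on the array were detected widely enough to test on day 4, and Trim21, which encodes the cytosolic antibody receptor, was lower in subset 2 (−1.18 ± 0.35, 10.2% of probes lower) and higher after injury (0.80 ± 0.19, 5.24% of probes higher). B2m, the light chain with which the neonatal receptor pairs, gave −0.07 ± 0.18 and 0.32 ± 0.14, neither called. None of the 4 genes for IgG, pentraxins or other ligands on the array could be tested in these fits.

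The strains were compared last, and each strain is 1 pool, so these p-values measure how alike a difference was between subsets of the same mice. In subsets 1 and 3 on day 4, the pair in which the Cx3cr1 probe followed the labels, Ccl2-/- was set against the other 3 strains. Fcgrt was lower in Ccl2-/- by 1.15 ± 0.19, or 2.22-fold (adjusted p = 0.0314), and it was the only call among the 7 genes against 0.714% of 16807 probes (0.470% lower). The Ccl2-/- array read 6.47 in subset 1 where the other strains read 6.99 to 7.70, and 7.76 in subset 3 where they read 8.86 to 9.33. It was the lowest of the strains in subset 2 as well (7.41 against 8.67 to 8.77) and in untreated subset 3 (8.37 against 8.75 to 9.20). In subset 4 on day 4 it was the highest (10.87 against 9.77 to 10.77). The call was lost when only these 8 arrays were normalized together (adjusted p = 0.0599) and without the filter on dim probes (0.111), and the second probe gave −1.27 (0.0275).

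Fcrls was lower in Ccl2-/- by 1.46 ± 0.31 without passing (adjusted p = 0.0685). Its array was the lowest of the 4 strains in 5 of 6 groups, and the gap was widest in subset 1, at 6.26 against 8.30 to 8.96. The other differences in this comparison were −0.62 ± 0.18 for Fcgr2b (adjusted p = 0.155), −0.61 ± 0.23 for Fcgr4, −0.45 ± 0.18 for Fcgr3, −0.10 ± 0.19 for Fcer1g and 0.20 ± 0.19 for Fcgr1. Fcgr1 was the gene in which Ccl2-/- was the highest strain most often, in 3 of 6 groups, and the lowest in none. For the same gene Cx3cr1-/- was the lowest strain in 5 of 6 groups and the highest in none.

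**Figure D4:**
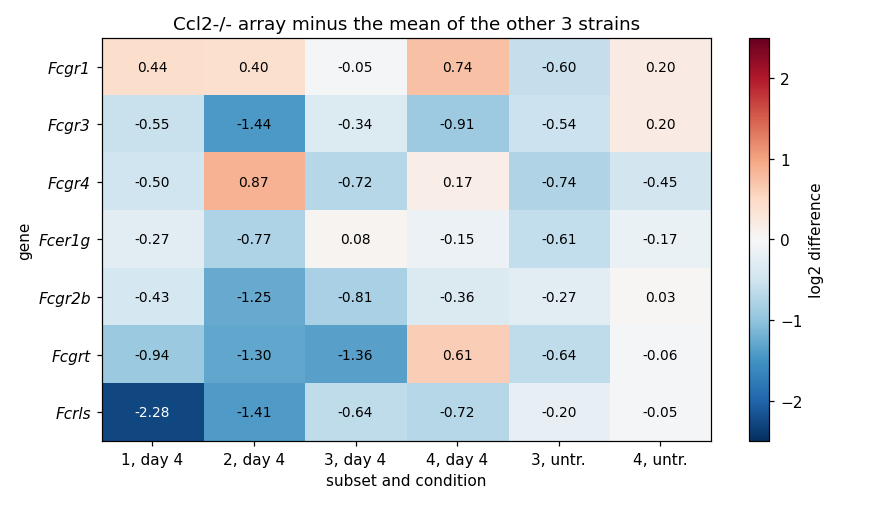
Log2 difference between the Ccl2-/- array and the mean of the other 3 strains (colour and printed value) for the 7 genes (vertical axis) in each subset and condition (horizontal axis, untr. for untreated). Fcrls ran from −2.28 in subset 1 to −0.05 in untreated subset 4, and Fcgrt was at −1.36 in subset 3 and 0.61 in subset 4 on day 4.

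Over all 4 day-4 subsets, none of the 7 genes was called for Ccl2 deficiency (0.0718% of probes were called) or for Cx3cr1 deficiency (0.0326%), or between Cx3cr1-/- Ccl2-/- and Ccl2-/-, where no probe was called by limma. For that last pair 760 of the 15320 probes tested had an unadjusted p under 0.05, close to the share of 0.05 that no difference at all would give. The largest differences were −1.03 ± 0.29 for Fcrls with Ccl2 deficiency (adjusted p = 0.186), −0.75 ± 0.41 for Fcgr4 with Cx3cr1 deficiency (0.247), and 0.90 ± 0.30 for Fcgr3 (0.768) and 0.86 ± 0.41 for Fcrls (0.768) between the last pair. The Fcgr4 value ran from −2.28 in subset 2, where the Cx3cr1-/- array was not above background, to 0.28 in subset 1. It was −0.17 (adjusted p = 0.870) without the weak arrays and −1.32 (0.0166) with scaling to the median. The Cx3cr1 deficiency fit rests in part on the arrays of subsets 2 and 4 whose Cx3cr1 probe did not follow the label.

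Over the 24 arrays the 7 genes fell along different lines, given here as a description of arrays that share pools, subsets and processing. Fcgr1 and Fcgr4 correlated at r = 0.72 and Fcgr3 and Fcgr2b at 0.81, while Fcgr1 and Fcrls stood at −0.43. Among 8111 other genes, those most like Fcgr1 were Rsad2 (0.88), Sap30 (0.87) and Ifit2 (0.86), of which Rsad2 and Ifit2 are known as interferon-induced genes. For Fcgr4 they were Myo1f (0.92), Lhfpl2 (0.91) and Galns (0.91). For Fcgr3 they were Igf1 (0.88), the complement gene C1qc (0.87) and Slco2b1 (0.85). Those most like Fcgrt were Igfbp4 (0.93), Cd33 (0.90) and Sorbs3 (0.90). Fcgr2b was closest to Atf3 (0.85), Klf2 (0.83) and Csf1r (0.83), Fcrls to Tspan32 (0.86), Abca9 (0.84) and Leprot (0.84), and Fcer1g to Gm6548 (0.82), Ndufs3 (0.82) and Eef1a1 (0.82).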

How the data were processed

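RNA of sorted cells was amplified (Ovation Pico WTA V2) and hybridised to Illumina WG6 V2.0 mouse arrays, 24 in all. The authors deposited, per probe and array, an unnormalized signal intensity and a detection p-value from GenomeStudio, and a normalized intensity, which differed from quantile-normalized signals by at most 0.0276 on the log2 scale. The intensities were background-corrected from the detection p-values, offset by 16, quantile-normalized over all arrays and put on a log2 scale with neqc of limma 3.58.1 in R 4.3.3. The platform annotation gave 1 symbol for 34885 probes, several for 18 and none for 10378. Probes with a detection p under 0.05 on at least 8 of 16 arrays (4 of 8 in the smaller fit) were tested with lmFit and eBayes, and p-values were adjusted by Benjamini-Hochberg over all probes tested, with 0.05 as the threshold. Day-4 subsets were fitted without a block. Injury and untreated subsets were fitted with strain as a block, and strains with subset as a covariate. Numbers pair arrays by design, since all subsets of a strain and condition came from the same mice. Deviations from group means correlated at a median of 0.162 over 24 such pairs (20 above 0.1) and −0.0618 over 72 other pairs. No arrays held identical values. The precision is limited by the number of arrays. Members and gene lists were chosen with earlier results of these data known. The text names all 7 genes, the list genes past the threshold with a few known partners, and the 3 genes most like each member over the arrays. Alternatives covered background correction, scaling, filters, the variance model, the block, other probes and leaving out each strain or the 4 weak arrays. The scripts were tested on simulated data. Promoter windows are from RefSeq (GRCm38.p6), and the arrays carry no genome build in the labels or methods.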

Additional observations from a re-analysis of the deposited data

Results flagged for a closer look

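Among 42 groups of 4 arrays (7 genes in 6 groups), 4 held an array far from the other 3, where chance gives about 2.1. Fcgr4 in subset 1 on day 4 read 10.17 in Ccl2-/- against 10.63 to 10.72 in the other strains. Fcer1g in subset 3 on day 4 read 10.94 in Cx3cr1-/- Ccl2-/- against 11.17 to 11.21. Fcgrt in subset 2 on day 4 read 7.41 in Ccl2-/- against 8.67 to 8.77. Fcgrt in untreated subset 4 read 11.12 in Cx3cr1-/- Ccl2-/- against 10.91 to 10.93.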

How the results depend on the processing

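Alternatives for single genes were run for the test over the subsets and otherwise only for comparisons that were called or had a larger difference. Of these values, 978 kept their direction and side of the threshold, 62 passed it newly, 55 lost it and 6 changed sign. The settings without background correction and with the authors' processed values differ by at most 0.0276 (log2), so they are not independent. Counts below are of the 7 genes called. Most are given without the share of all probes called under the same setting, so they are no result about these genes. Smaller moves of a count are mostly left out, so a count not listed can have changed. Over both subsets after injury the count stayed at 3 under every alternative. Scaling to the median moved the median of all probes for subset 2 against the others from −0.17 to −0.53. For subset 3 against the others it moved from 0.15 to 0.72, and for subset 3 against 2 from 0.24 to 0.92. For the difference of the injury effect it moved from −0.26 to −1.16, and for Cx3cr1 deficiency from −0.15 to −0.58. With this setting the count was 0 for subset 1 (2 in the report), 5 for subset 2 (3), 4 for subset 3 (0), 7 for subset 3 against 2 (4), 2 for subset 4 against 2 (5), 2 for injury in subset 4 (1), 4 for the difference of the injury effect (0), 1 between untreated subsets (2) and 2 for Cx3cr1 deficiency (0). Without background correction, and with the authors' processed values, it was 3 for subset 4 against 1 (1), 1 for subset 4 against 3 on day 4 (0) and 3 for injury in subset 4 (1). Without the filter it was 3 for subset 4 against 2, 2 for injury in subset 4 and 0 for Ccl2-/- against the other strains (1). It was 2 for injury in subset 4 with probes detected in every array of 1 group, and with a variance trend it was 2 there and 2 for Ccl2-/-. Normalizing the arrays of the fit alone gave 0 for Ccl2-/-.

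Strain pairs the arrays by pool. With the replicate block on day 4 the count was 3 for subset 1, 4 for subset 2, 1 for subset 3, 3 for subset 2 against 1, 1 for subset 3 against 1, 2 for subset 4 against 1 and 1 for subset 4 against 3, and without it 1 between untreated subsets. Over all probes the block raised the calls for subset 2 from 2246 to 3563 and for subset 1 from 207 to 349. Without the weak arrays the count was 1 for subset 3, 2 for subset 4, 2 for subset 3 against 1, 2 for subset 4 against 1, 1 for subset 4 against 3 on day 4, 2 for injury in subset 4, 1 between untreated subsets and 1 for Ccl2 deficiency. Under the same setting Fcgr4 was gained for subset 1, and Fcrls was lost for subset 3 against 2. For subset 4 against 2, Fcgr4 and Fcrls were lost and Fcgr2b was gained.

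Leaving out each strain in turn gave 0 to 2 for subset 1, 0 to 1 for subset 4, 1 to 2 for subset 2 against 1, 0 to 4 for subset 3 against 2, 0 to 4 for subset 4 against 2, 1 to 4 for the test over subsets, 1 to 2 for injury in subset 4, 0 to 1 for the difference of the injury effect and 1 to 2 between untreated subsets. The lowest day-4 counts came without Cx3cr1-/- Ccl2-/-. Leaving out a subset in the 8-array strain fit leaves no residual degrees of freedom among subsets and was not run.

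For Fcgr2b the probe ILMN_2577664 changed sign, with 0.52 for subset 2 and −0.16 for subset 4 against the others, −0.18 for subset 4 against 1, −0.51 for subset 4 against 2 and −0.58 between untreated subsets, and scaling to the median gave −0.064 for subset 4 against 1. The causes were not tested. Signal near background limits Fcgr1 in untreated subset 3, above background on 1 of 4 arrays, and Fcgr4 in subset 2 on day 4, with 1 array not above it.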
